A study of Mus musculus with 12 samples.

Results

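The nuclear genes of the mitochondrial respiratory chain and ATP synthase were followed in mouse macrophages and osteoclasts with and without lipopolysaccharide (LPS, a component of the outer membrane of Gram-negative bacteria). The members were the protein-coding genes whose mouse symbols begin with Ndufa, Ndufb, Ndufc, Ndufs, Ndufv, Uqcr, Cox4i1, Cox5, Cox6, Cox7, Cox8 or Atp5, together with Sdha, Sdhb, Sdhc and Sdhd. A gene was kept at 1 or more FPKM (fragments per kilobase of a gene's length, divided by a scale that the authors set for each library) in at least 3 of the 12 libraries. Of 93 such coding genes, 86 were kept, out of 54532 genes in the table. They were 36 genes of complex I, 4 of complex II, 8 of complex III, 13 of complex IV, 16 of complex V and 9 assembly factors, which the symbols Ndufaf1 to Ndufaf8 and Atp5s bring in although they are not parts of the finished complexes. Ndufa4 was counted with complex IV, where its protein resides. The 77 genes other than assembly factors are called subunits here. Ndufab1, also the mitochondrial acyl carrier protein, and Cox7a2l, which helps join complexes into supercomplexes, were counted among them.

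The cells came from the femurs and tibiae of wild-type (WT) mice, whose age and strain are not given in the sources used here. Bone marrow derived macrophages were grown with CMG, a source of M-CSF, and were sampled on day 5 without RANKL, either untreated or after 100 ng/mL LPS for 3 hours. Osteoclasts were made from the same kind of macrophages with RANKL, given as 100 ng/mL in the sample source and as 50 to 100 ng/mL in the protocol, and were sampled untreated or after the same LPS treatment. Each of the 4 groups had 3 libraries, all from total RNA, and no label says whether these came from separate cultures or animals, so p-values measure only the spread between these samples. Libraries held 15651770 to 20281456 reads assigned to genes. The summed FPKM of 9 osteoclast markers, Ctsk and Acp5 among them, was 15.4 to 19.2 in untreated macrophages and 29693 to 31136 in untreated osteoclasts, which fits the labels. All 6 macrophage markers reached 1 FPKM in macrophages and 5 did in osteoclasts. Of 5 stromal markers 3 reached 1 FPKM in untreated macrophages and 0 in untreated osteoclasts, with none at 0 in the former and Cxcl12 at 0 in the latter. Their summed level was 26.1 to 36.0 FPKM against 0.613 to 0.929 FPKM. The 5 neutrophil markers summed to 4.08 to 6.08 FPKM against 0.170 to 0.682 FPKM, with Ly6g and Elane at 0 in untreated macrophages and Ly6g, S100a9, Mpo and Elane at 0 in untreated osteoclasts. The 4 T cell markers summed to 0.380 to 0.590 FPKM against 0.0730 to 0.121 FPKM, with none reaching 1 FPKM and Cd3g and Cd8a at 0 in both, and Cd3e in the former. These markers moved with cell type, and their part in the differences below was not tested. In bulk libraries, fewer cells of a type and less RNA per cell cannot be told apart.

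The respiratory chain sits in the inner mitochondrial membrane. Complex I takes electrons from NADH and complex II from succinate, complex III passes them through cytochrome c to complex IV, which reduces oxygen, and complex V uses the resulting proton gradient to make ATP. Most subunits are encoded in the nucleus and imported, and a small set comes from mitochondrial DNA. Osteoclasts, the cells that dissolve bone, are known to be rich in mitochondria, and macrophages given LPS are known for a shift toward glycolysis.

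Promoter windows are shown first, because 83 of the 86 members were called higher in osteoclasts than in macrophages and the 3 genes of 1 ATP synthase subunit differed by unequal amounts. RefSeq windows on GRCm38.p6, from 250 bases before to 50 bases after the gene start, were matched for 73 of the 86 members, some with more than 1 window. Atp5g1, Atp5g2 and Atp5g3 encode the same mature subunit c, the rotor ring of complex V, with different import signals, and Uqcrfs1 had the highest difference among members with a window. Capitals mark the motifs listed further down. All 4 windows are on the minus strand, and each is written in the direction of its gene, 5′ to 3′. They lie at chr11:96075582-96075881 for Atp5g1, chr15:102670998-102671297 for Atp5g2, chr2:73911277-73911576 for Atp5g3 and chr13:30545267-30545566 for Uqcrfs1.
Atp5g1: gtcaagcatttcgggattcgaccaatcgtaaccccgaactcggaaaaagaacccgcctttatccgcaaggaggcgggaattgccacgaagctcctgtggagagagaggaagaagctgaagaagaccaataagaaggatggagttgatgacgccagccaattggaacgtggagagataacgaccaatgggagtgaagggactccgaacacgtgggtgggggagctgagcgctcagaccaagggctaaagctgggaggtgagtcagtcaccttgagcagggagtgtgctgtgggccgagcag
Atp5g2: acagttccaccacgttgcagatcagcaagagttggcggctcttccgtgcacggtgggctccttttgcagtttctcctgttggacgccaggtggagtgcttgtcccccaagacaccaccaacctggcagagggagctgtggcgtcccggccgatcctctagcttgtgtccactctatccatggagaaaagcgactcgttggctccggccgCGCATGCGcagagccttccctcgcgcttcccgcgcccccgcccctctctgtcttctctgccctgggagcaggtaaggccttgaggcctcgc
Atp5g3: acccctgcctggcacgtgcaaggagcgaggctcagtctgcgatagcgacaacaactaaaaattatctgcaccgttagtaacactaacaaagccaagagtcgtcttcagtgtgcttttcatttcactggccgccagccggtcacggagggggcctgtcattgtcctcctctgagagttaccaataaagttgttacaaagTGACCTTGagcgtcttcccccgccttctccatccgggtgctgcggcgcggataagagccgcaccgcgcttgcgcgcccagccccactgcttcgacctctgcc
Uqcrfs1: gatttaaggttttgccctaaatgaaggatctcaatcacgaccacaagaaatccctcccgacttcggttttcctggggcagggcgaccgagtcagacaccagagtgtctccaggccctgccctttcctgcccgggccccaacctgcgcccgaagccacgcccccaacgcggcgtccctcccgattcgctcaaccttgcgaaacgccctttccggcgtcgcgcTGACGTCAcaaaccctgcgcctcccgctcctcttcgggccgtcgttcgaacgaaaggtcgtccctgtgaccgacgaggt

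Exact matches on both strands were sought for 5 motifs, none of which contains another. The core of the site of NRF1, a transcription factor known for genes of the respiratory chain, was searched as CGCATGCG and was found in a window of 11 of the 73 members, or 15.1%, against 2.07% of the 27025 genes with a window. By window, these shares were 14.1% of 78 and 1.87% of 32851. The YY1 site AAGATGGCG was found in 8 members, or 10.96%, against 1.64%. The ETS site CCGGAAGT, which GABP binds, was in 5, or 6.85%, against 4.31%. The ESRRA half-site CAAGGTCA was in 4, or 5.48%, against 1.76%, and the CRE site TGACGTCA in 4, or 5.48%, against 2.03%. In the printed windows, Atp5g2 had the NRF1 core, Atp5g3 the ESRRA half-site on the opposite strand, Uqcrfs1 the CRE site, and Atp5g1 none of the 5. A match describes letters and does not show binding.

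The 11 matches to the NRF1 core fell in complexes I, III, IV and V and in assembly factors, and are shown with up to 10 flanking bases because this motif had the highest share. Their GRCm38.p6 positions are chr2:36049330-36049357 for Ndufa8 and chr17:56717693-56717720 for Ndufa11, both of complex I. For complex III they are chr9:108936669-108936696 for Uqcrc1 and chr10:80406809-80406836 for Uqcr11, and for complex IV chr5:115349102-115349129 for Cox6a1. For complex V they are chr15:102671071-102671098 for Atp5g2, chr16:84835106-84835133 for Atp5j, chr5:108434431-108434458 for Atp5k and chr9:44920966-44920992 for Atp5l. The assembly factors Ndufaf4 and Ndufaf5 had theirs at chr4:24897961-24897988 and chr2:140170653-140170680. Ndufa11, Uqcrc1, Ndufaf4 and Ndufaf5 are on the plus strand and the others on the minus strand.
Ndufa8: tcgctggagaCGCATGCGcagatggtac
Ndufa11: ctgcactgcgCGCATGCGcgcacgcctt
Uqcrc1: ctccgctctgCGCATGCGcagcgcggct
Uqcr11: atcgccttcaCGCATGCGctatacgtct
Cox6a1: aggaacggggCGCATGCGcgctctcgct
Atp5g2: gctccggccgCGCATGCGcagagccttc
Atp5j: ggccagaataCGCATGCGtacagtgcag
Atp5k: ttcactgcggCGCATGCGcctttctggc
Atp5l: aaccaataaCGCATGCGcatttccccc
Ndufaf4: cagatgtctgCGCATGCGcctgtgcgga
Ndufaf5: gtcccgttggCGCATGCGcctaatagaa

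Without LPS, osteoclasts were compared with macrophages to ask how the chain differs between the cell types. All 77 subunit genes were higher in osteoclasts, and for each of them the lowest osteoclast library was above the highest macrophage library. In the whole table, 40.6% of the genes tested separated in that direction. Limma's test on log2(FPKM + 1), with p-values adjusted over 11335 genes by Benjamini-Hochberg and called at an adjusted p under 0.05, called 83 members higher and 1 lower, while Ndufaf2 and Ndufaf8 did not pass. It called 38.8% of all genes tested higher and 39% lower. The median log2 difference was 1.65 over the members and 0.00 over all genes tested. As a ratio of mean FPKM, 73 members were at least 2-fold and 19 at least 4-fold higher in osteoclasts. At a log2 difference of at least 1 there were 72 members, beside 13.4% of all genes tested. In TPM (FPKM rescaled to the same sum in each library), where the median of all genes tested was -0.38, 79 members were still called higher, beside 24.3% of all genes tested, with a median of 1.25. The plot of every member shows these differences by complex.

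**Figure D1:**
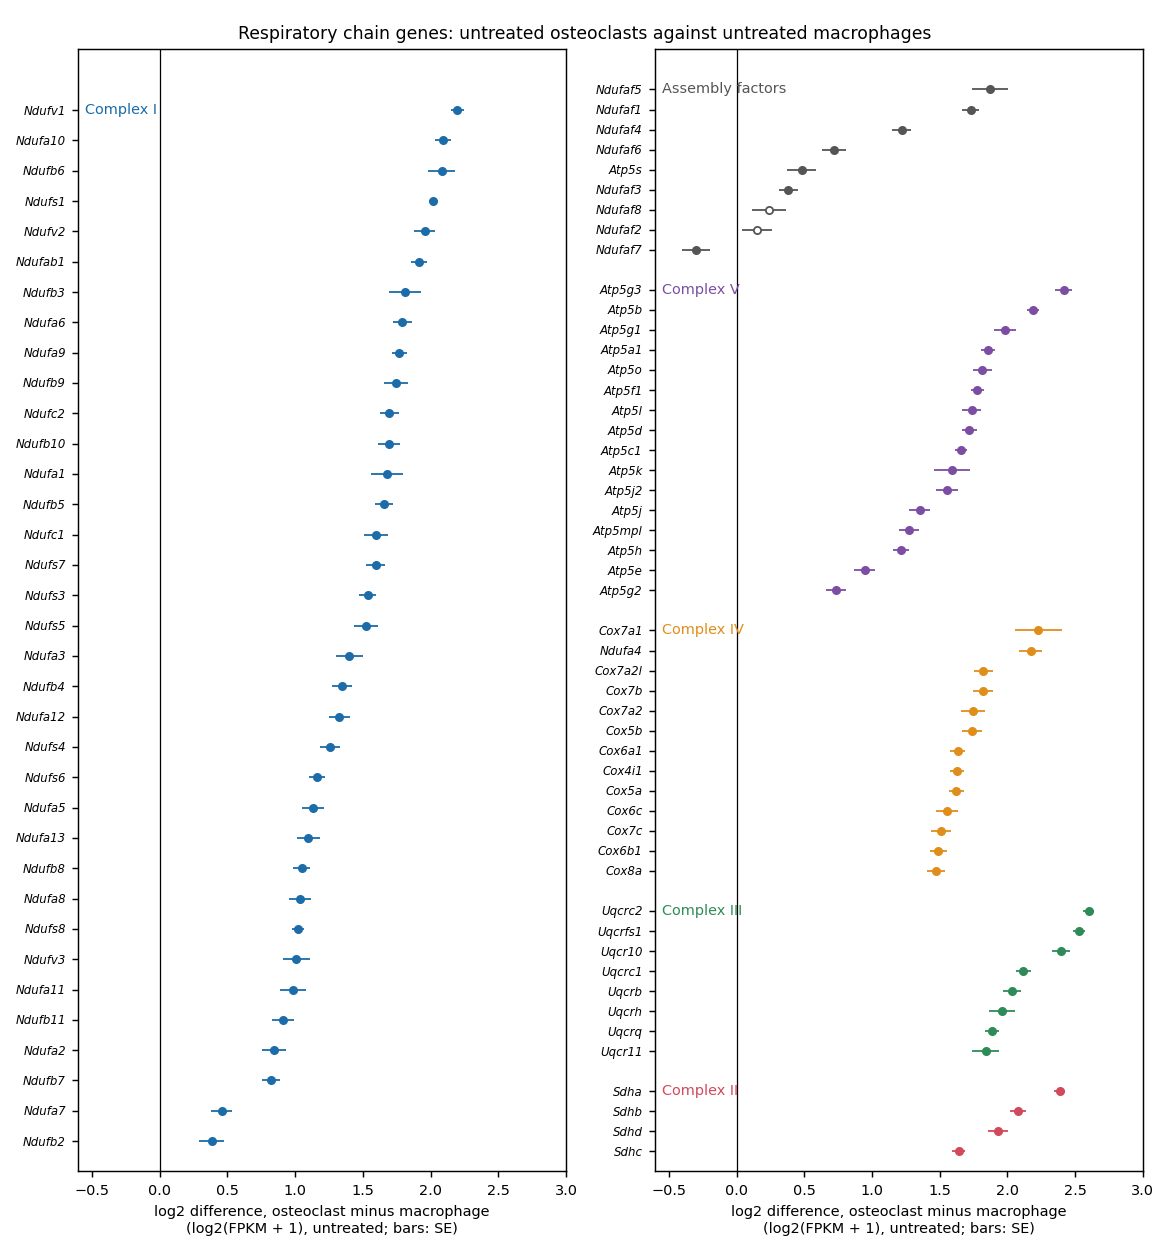
Log2 difference of 85 of the 86 members between untreated osteoclasts and untreated macrophages (x axis, on log2(FPKM + 1)), by complex, with the standard error as a bar and 3 libraries per group. Filled points passed the test, open points (Ndufaf2 and Ndufaf8) did not, and Ndufaf7 is the gene below 0.

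The complexes differed in the size of the rise. Median log2 differences were 2.08 for complex III, 2.00 for complex II, 1.69 for complex V, 1.63 for complex IV, 1.53 for complex I and 0.48 for the assembly factors. Summed FPKM of the subunits was 3232, 3323 and 3166 in the 3 untreated macrophage libraries and 10722, 11197 and 10766 in the 3 untreated osteoclast libraries. The sum of complex III rose from 353 ± 8.22 to 1665 ± 48.2 FPKM (SD, n = 3), or 4.71-fold, and that of complex I from 836 ± 28.2 to 2368 ± 45.8 FPKM, or 2.83-fold. The other ratios were 4.21 for complex II, 3.15 for complex IV, 3.41 for complex V and 2.00 for the assembly factors. Shares within a library are not altered by a linear scaling of it, though quantile normalization can alter them. Complex III took 10.7 to 11.1% of the summed subunit FPKM in untreated macrophages and 15.2 to 15.4% in untreated osteoclasts. Complex I took 25.4 to 26.2% and 21.6 to 21.9%. No test was run on these sums and shares. The libraries of the cell types did not overlap in either share or in any of the sums.

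**Figure D2:**
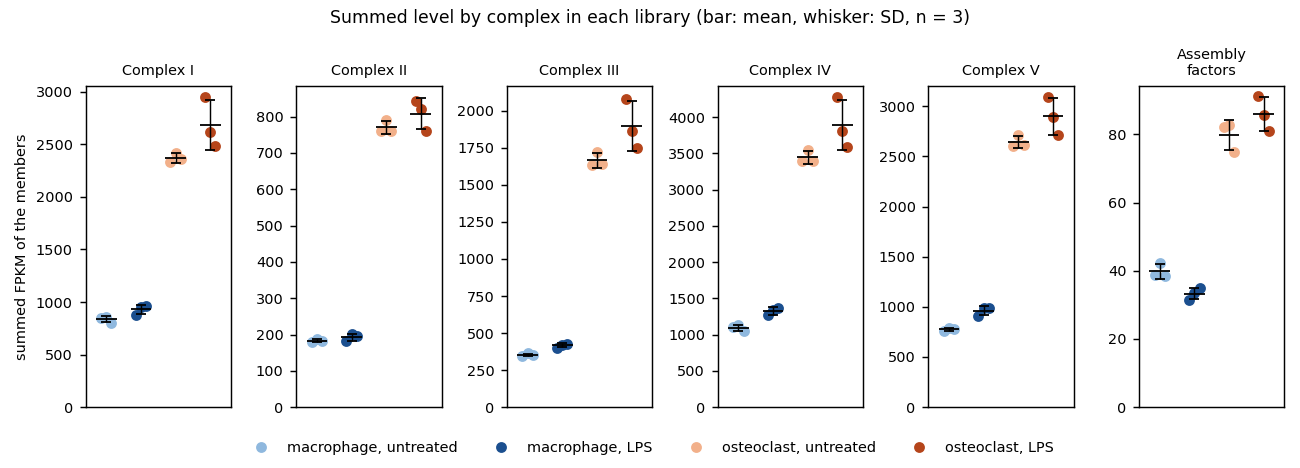
Summed FPKM of the members of each complex and of the assembly factors (y axes from 0, on separate scales), with 1 point per library, the mean as a bar and the SD as a whisker (n = 3). Both osteoclast groups lie above both macrophage groups in all 6 panels, and the first LPS-treated osteoclast library is the highest of all 12 in each.

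In complex III, Uqcrc2, a core subunit of the matrix arm on chromosome 7 (120635176 to 120659524), had the highest difference of all members. Its values were 29.9, 29.8 and 30.1 FPKM in untreated macrophages and 187, 187 and 186 FPKM in untreated osteoclasts. The groups were far apart and the replicates nearly equal, giving a log2 difference of 2.60 ± 0.04 (SE, limma adjusted p = 1.4e-13) and a 6.23-fold ratio of means. Uqcrfs1, the Rieske iron-sulfur protein, was next at 48.3, 47.9 and 49.2 against 283, 289 and 282 FPKM, a difference of 2.53 ± 0.04 (limma adjusted p = 2.6e-13). Uqcr11, a small accessory subunit, had the lowest difference of this complex, 1.84 ± 0.10. It was at 48.0, 55.2 and 49.0 FPKM in macrophages and at 165, 207 and 182 FPKM in osteoclasts, so that even here the libraries stood apart.

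In complex II, the flavoprotein Sdha, which oxidises succinate, was at 47.1, 48.3 and 46.5 FPKM in untreated macrophages and 242, 258 and 254 FPKM in untreated osteoclasts. The log2 difference was 2.38 ± 0.04 (limma adjusted p = 1.5e-13). The membrane anchor Sdhc had the lowest difference of the 4 genes, 1.64 ± 0.05, with 30.1, 32.2 and 31.7 against 101, 102 and 96.5 FPKM. Both genes separated the cell types in every library.

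Complex I is the largest of the complexes and its genes had the widest range of differences among the complexes. Its 7 core subunits, which carry the flavin and the iron-sulfur clusters, had a median log2 difference of 1.96, and its 29 accessory subunits one of 1.34. The core genes made up 20.5 to 21.6% of complex I FPKM in untreated macrophages and 24.3 to 25.2% in untreated osteoclasts. Ndufv1, the subunit that binds NADH, was at 13.4, 14.8 and 13.8 against 65.8, 67.4 and 69.9 FPKM, the highest difference of complex I at 2.20 ± 0.05 (limma adjusted p = 1.6e-12). Ndufb2 had the lowest, 0.38 ± 0.09 (limma adjusted p = 0.0020), at 0.859, 0.695 and 0.790 against 1.45, 1.34 and 1.18 FPKM. Ndufb2 was below 1 FPKM in every macrophage library and was kept only through osteoclasts, which favours a higher value there. Its merged exons in the annotation span 5628 bases, which lowers its FPKM, and the pseudocount of 1 lowers its log2 difference, so that the ratio of means was 1.69. Ndufa7, at 1.39-fold, had the lowest ratio of the subunits. After rescaling to TPM, Ndufb2 and Ndufa7 no longer passed, with log2 differences of 0.26 and 0.05.

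Complex IV ran from 1.47 for Cox8a to 2.23 for Cox7a1, with Ndufa4 at 2.17. Leaving aside Cox7a1 and Ndufa4, its highest value was 1.82, for Cox7a2l and Cox7b. Cox8a, a small subunit, was the most abundant complex IV gene per length in both cell types, at 212, 238 and 208 against 609, 616 and 606 FPKM. Cox7a1, the heart and skeletal muscle form of its subunit, was rare but rose most, from 3.47, 2.70 and 1.51 to 16.3, 14.4 and 15.1 FPKM, a difference of 2.23 ± 0.18 (limma adjusted p = 1.6e-07). Among the FPKM of Cox7a1, Cox7a2 and Cox7a2l, its share was 1.03 to 2.22% in untreated macrophages and 2.57 to 3.16% in untreated osteoclasts. Of the other tissue-restricted forms, Cox6a2 stayed under 1% of its pair with Cox6a1, and Cox6b2, Cox7b2, Cox8b, Cox8c and Ndufa4l2 were below the FPKM minimum, with Cox7b2, Cox8c and Ndufa4l2 listed at 0 in all 12 libraries.

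In complex V, the 3 genes of subunit c rose by unequal amounts. Atp5g3 was at 44.7, 46.9 and 43.9 FPKM in untreated macrophages and 239, 259 and 240 FPKM in untreated osteoclasts, a difference of 2.42 ± 0.06 (limma adjusted p = 4.9e-12). Atp5g2 had the lowest difference of complex V, 0.73 ± 0.07 (limma adjusted p = 1.6e-06), at 47.0, 48.2 and 51.2 against 81.7, 85.9 and 77.8 FPKM. Atp5g1 was the rarest of the 3 in both cell types, at 10.99, 11.5 and 12.6 against 48.2, 50.3 and 48.5 FPKM.

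Atp5g2 went from 45.2 to 47.6% of the FPKM of the 3 genes in untreated macrophages to 21.2 to 22.2% in untreated osteoclasts. Atp5g3 went from 40.8 to 44.0% to 64.7 to 65.5%, and Atp5g1 from 10.7 to 11.7% to 12.7 to 13.3%. The libraries of the cell types did not overlap for any of the 3 shares. Of the exon sequence of Atp5g2, 38.3% of 50-base words also occur in other genes, mostly in Gm10175, so its counts are less certain than those of the other 2. The plot of subunit c shares gives all 12 libraries.

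**Figure D3:**
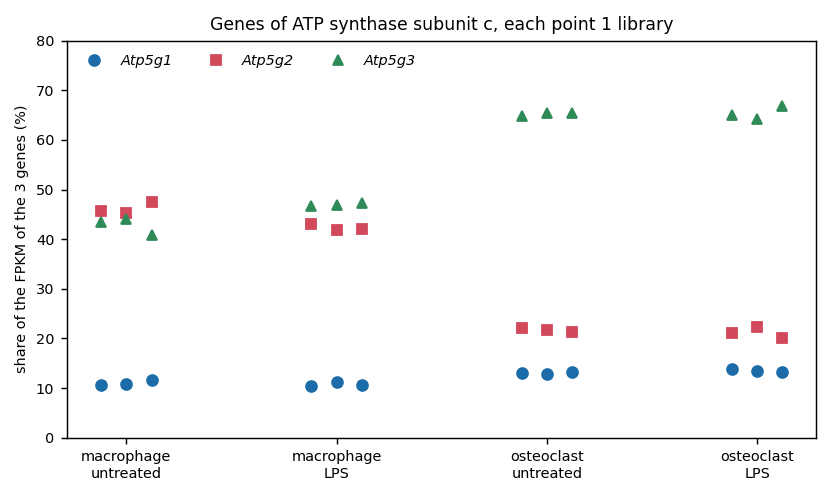
Share of each subunit c gene in the summed FPKM of Atp5g1, Atp5g2 and Atp5g3 (y axis, percent) in the 4 groups, with 1 point per library. Atp5g2 and Atp5g3 are near each other in macrophages and far apart in osteoclasts, with and without LPS.

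Atp5a1 and Atp5b, the alpha and beta subunits that form the catalytic head of ATP synthase, were among the most abundant members per length in osteoclasts. Atp5a1 was at 151, 165 and 162 FPKM in untreated macrophages and 565, 589 and 581 FPKM in untreated osteoclasts. Atp5b rose from 119, 126 and 125 to 555, 577 and 569 FPKM, a difference of 2.19 ± 0.04 (limma adjusted p = 5.6e-13). The central stalk gene Atp5c1 rose less, by 1.66 ± 0.05, and the ratio of Atp5b to Atp5c1 was 1.82 to 2.00 in macrophages and 2.65 to 2.82 in osteoclasts, without overlap.

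The assembly factors, most of which help build complex I and then leave, spread most. Of the 9, 6 were called higher, 1 lower, and 2 did not pass. In TPM 4 were called higher and 1 lower, with Atp5s at 0.23 and Ndufaf3 at 0.02 no longer passing. Ndufaf5, a hydroxylase of Ndufs7, was at 2.65, 3.21 and 2.91 against 13.1, 13.8 and 13.1 FPKM, a difference of 1.87 ± 0.13 (limma adjusted p = 5.8e-08). Ndufaf7, a protein methyltransferase, fell by 0.30 on the log2 scale, from 2.62, 2.57 and 2.58 to 1.56, 2.15 and 2.08 FPKM (limma adjusted p = 0.020). That call was lost without untreated osteoclast replicate 1, with quantile normalization and with only genes whose mean was 5 FPKM or more, which leaves this gene out. Ndufaf genes summed to 4.33 to 4.71 per 100 of complex I FPKM in untreated macrophages and to 3.05 to 3.37 in untreated osteoclasts.

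The genes around the nuclear subunits were taken from lists. All 13 subunits encoded in mitochondrial DNA were called higher in untreated osteoclasts, with a median log2 difference of 2.04 and a range of 1.59 to 2.26. Mitochondrial genes took 1.504 to 1.62% of reads in untreated macrophages and 5.37 to 5.90% in untreated osteoclasts. Levels of the 13 in untreated macrophages ran from 0.71 FPKM for mt-Atp8 to 3668 FPKM for mt-Co1, and the part of reads that map to several places in this spread was not tested. For complex I, mitochondrial over nuclear FPKM was 5.04 to 5.78 in macrophages and 7.84 to 8.98 in osteoclasts. For complex III, by contrast, the ratios overlapped, at 3.89 to 4.16 and 3.66 to 4.27.

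All 10 tested carriers and partners were higher, beside 38.8% of all genes tested. The 11th listed, Cox4i2, a form of a complex IV subunit, was too low to be tested, at 0.985, 1.24 and 0.570 FPKM in untreated macrophages and at 0.0688, 0 and 0 FPKM in untreated osteoclasts. Cyc1, the cytochrome c1 of complex III, had a difference of 2.75 and Cycs, cytochrome c itself, one of 2.64, both above the highest member. Of 38 further assembly factors, 35 were tested, 31 were called higher and 1, Cox17, lower, with a median of 0.66. In TPM 23 were higher and 3 lower, with a median of 0.40. The call for Cox17 was lost after quantile normalization, at 0.06. Among 9 tested regulators of mitochondrial genes, Ppargc1b, a coactivator of mitochondrial biogenesis, rose by 3.17 on the log2 scale, from 1.54 to 21.98 FPKM on average, and its partner Esrra by 1.37. Ppargc1a was listed at or near 0 in all groups. Nrf1, Gabpa, Gabpb1, Pprc1 and Myc were lower in osteoclasts as deposited, in TPM and after quantile normalization, and Tfam was called lower in TPM at -0.26 but did not pass as deposited, at 0.12, or after quantile normalization, at 0.19. Yy1 was called higher with a difference of 0.14 as deposited, lower in TPM at -0.27, and did not pass after quantile normalization, at 0.07.

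LPS for 3 hours in macrophages was tested against untreated macrophages. Under each of 3 scalings (FPKM as deposited, TPM and quantile normalization) 6 members were called lower. These were the assembly factors Ndufaf1, Ndufaf4, Ndufaf6, Ndufaf7 and Atp5s, and the complex I core subunit Ndufs8. All 86 members were below 0 in TPM and 79 after quantile normalization, so agreement in this direction was nearly set by the scalings. In the deposited values limma called these 6 members lower and 40 higher, against 33.1% and 36.8% of all genes tested. No member was called higher under all 3 scalings, beside 15.5% of all genes tested that were higher and 31% that were lower in all 3. The median log2 difference of the members was 0.17 as deposited, -0.46 in TPM and -0.32 after quantile normalization. The median over all genes tested was 0.02, -0.55 and -0.14, so the members lay above it by 0.15 and 0.10 in the first pair and below it by 0.18 in the last. Limma called 0 members higher and 83 lower in TPM, where 15.9% and 70% of all genes tested were called. After quantile normalization it called 1 higher and 71 lower, beside 26.9% and 45.8%. Summed FPKM over all genes differed between groups, and the subunits were 1.24 to 1.27% of it in untreated macrophages and 0.896 to 0.977% after LPS. Markers of some other cells separated the groups too: 3 dendritic cell markers summed to 0.20 to 0.28 FPKM untreated, none at 0, and to 5.26 to 5.96 FPKM after LPS, with 1 of 3 reaching 1 FPKM and Flt3 at 0. The 5 neutrophil markers summed to 4.08 to 6.08 FPKM and to 5.30 to 11.8 FPKM after LPS, with 2 reaching 1 FPKM in either group and none at 0 after LPS, so that these sums overlapped. The osteoclast markers summed to 15.4 to 19.2 FPKM and to 23.9 to 28.0 FPKM after LPS, with 5 of 9 reaching 1 FPKM in either group and Calcr at 0 in the untreated one. Their part in these differences was not tested. The plot of the macrophage LPS effect shows the 3 scalings side by side.

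**Figure D4:**
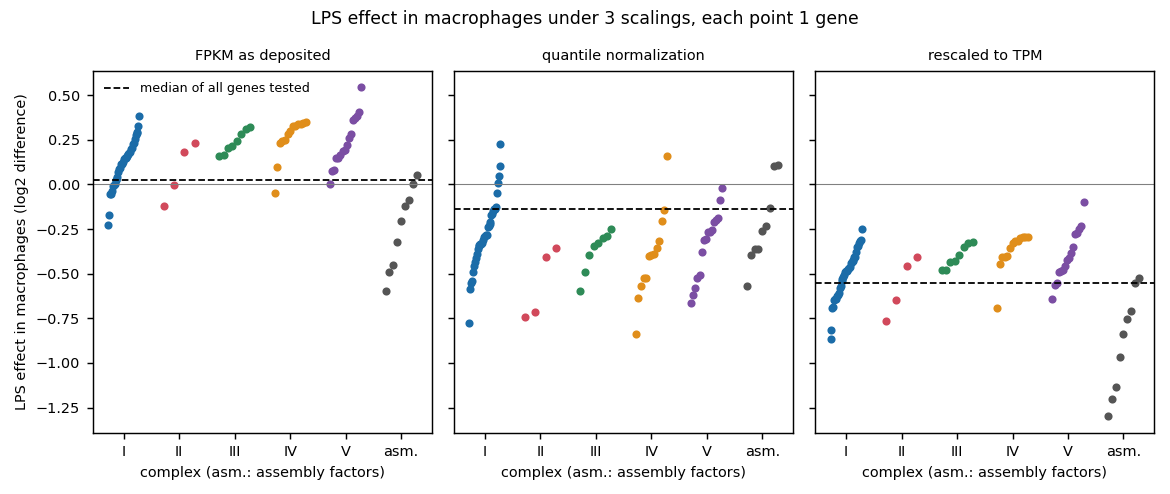
LPS effect in macrophages (y axis, log2 difference) for 85 of the 86 members by complex under FPKM as deposited, quantile normalization and rescaling to TPM, with the median of all genes tested as a dashed line. The subunits lie mostly above 0 in the deposited values and mostly below 0 in the other panels, whereas the lowest assembly factors are below 0 in all 3.

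Ndufaf4, a complex I assembly factor on chromosome 4 (24898083 to 24905001), fell most. It was at 4.22, 4.31 and 4.47 FPKM untreated and 2.21, 2.68 and 2.70 FPKM after LPS, with no overlap. The log2 difference was -0.60 ± 0.07 (limma adjusted p = 7.4e-06), -1.30 in TPM and -0.57 after quantile normalization. Ndufaf7 went from 2.62, 2.57 and 2.58 to 1.36, 1.61 and 1.95 FPKM, a difference of -0.45 ± 0.10 (limma adjusted p = 0.0021).

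Atp5s, a factor linked to complex V and also called Dmac2l, went from 2.07, 1.94 and 1.96 to 1.08, 1.12 and 1.19 FPKM, a difference of -0.49 ± 0.11 (limma adjusted p = 0.0015). Ndufaf6 fell by 0.32 and Ndufaf1 by 0.21 on the log2 scale. Ndufaf2, Ndufaf3, Ndufaf5 and Ndufaf8 did not pass in the deposited values, and Ndufaf5, the highest of the assembly factors at 0.05 ± 0.13, was at 2.23, 4.12 and 3.06 FPKM after LPS. Summed Ndufaf FPKM per 100 of complex I was 4.33 to 4.71 untreated and 3.40 to 3.52 after LPS, a ratio within each library that a change of its scale leaves as it is. Ndufs8, which holds a pair of iron-sulfur clusters, was at 47.0, 45.5 and 46.3 FPKM untreated and 39.8, 43.1 and 40.1 FPKM after LPS, a difference of -0.17 ± 0.04 (limma adjusted p = 0.0029).

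The 40 calls above 0 in the deposited values were 10 in complex I, 2 in II, 6 in III, 11 in IV, 11 in V and 0 among assembly factors. Atp5a1 had the highest difference, 0.55 ± 0.05 (limma adjusted p = 1.0e-06), with 151, 165 and 162 FPKM untreated and 218, 243 and 237 FPKM after LPS, but its difference was -0.10 in TPM and -0.31 after quantile normalization. Relative to another gene of its complex it also went up, since Atp5a1 over Atp5c1 was 2.30 to 2.61 untreated and 3.34 to 3.46 after LPS. Atp5b over Atp5c1 went from 1.82 to 2.00 to 2.30 to 2.38. These ratios show unequal change of the genes and not which of them changed.

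In complex I, Ndufb6 had the highest deposited difference, 0.38 ± 0.10, at 29.5, 25.5 and 24.0 against 34.2, 37.5 and 32.0 FPKM. Exons of an opposite-strand gene cover 39.0% of its own, so its value is uncertain. Its difference was -0.25 in TPM and -0.14 after quantile normalization. Ndufv3 was the lowest of complex I at -0.23 ± 0.10 and did not pass (limma adjusted p = 0.055), with 10.7, 13.9 and 11.7 against 10.3, 9.50 and 10.6 FPKM, groups that did not overlap.

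In complexes II and III the highest deposited differences were those of Sdha, 0.23 ± 0.04, and Uqcrfs1, 0.32 ± 0.04. Sdha went to 54.2, 56.6 and 56.6 FPKM after LPS and Uqcrfs1 to 62.8, 61.1 and 58.6 FPKM, each above all untreated libraries. Both were below 0 under the other scalings, Sdha at -0.41 in either and Uqcrfs1 at -0.32 and -0.33. Sdhb, the iron-sulfur subunit of complex II, was at 37.7, 39.7 and 38.9 against 34.1, 37.2 and 35.4 FPKM and did not pass as deposited. The lowest of complex III, Uqcr11, did not pass either and overlapped, at 51.1, 56.8 and 63.2 FPKM after LPS.

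Complex IV had 11 of its 13 genes called in the deposited values, with Cox6b1, which lies where the units of the complex IV dimer meet, highest at 0.35 ± 0.06. It was at 148, 143 and 137 FPKM untreated and at 176, 187 and 184 FPKM after LPS, yet at -0.29 in TPM and -0.52 after quantile normalization. Cox7a2l was lowest, at 93.8, 84.8 and 87.3 against 88.5, 87.7 and 81.3 FPKM, and did not pass. Atp5g2 did not pass in complex V, at 46.8, 50.2 and 49.7 FPKM after LPS, levels that overlapped the untreated ones, while its difference was -0.64 in TPM and -0.62 after quantile normalization.

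Among the lists in the deposited values, 8 of 13 mitochondrially encoded subunits were called higher and 0 lower, with a median of 0.39. This direction turned with the scaling: 8 were lower and 0 higher in TPM, with a median of -0.25, and 7 lower and 0 higher after quantile normalization, with a median of -0.35. Of 10 carriers and partners, 4 were higher and 0 lower as deposited, 1 and 9 in TPM with a median of -0.48, and 1 and 5 after quantile normalization. Cycs rose by 0.94 as deposited, from 13.83 to 27.52 FPKM on average, and by 0.34 in TPM and 0.55 after quantile normalization. Of 35 further assembly factors tested, 9 were called higher and 13 lower as deposited, 3 and 29 in TPM, and 9 and 17 after quantile normalization. Of all genes tested, 36.8% and 33.1%, 15.9% and 70%, and 26.9% and 45.8% were called under these scalings. Tmem126b, which helps build the membrane arm of complex I, had the lowest difference of them, -1.62, from 4.62 to 0.83 FPKM, and Taco1 and Uqcc3 were at -0.99 and -0.86. Cox18, Sco1 and Cox17, of complex IV, were at 1.10, 1.06 and 1.01. Myc was at -3.14, from 23.66 to 1.82 FPKM, and Ppargc1b at 1.74, from 1.54 to 7.52 FPKM. These 8 genes, from Tmem126b to Ppargc1b, were called in the same direction under all 3 scalings.

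LPS in osteoclasts gave small differences in the members. Limma called 9 members higher and 0 lower, beside 11.1% and 6.59% of all genes tested. At an unadjusted p under 0.05, 43 members were higher, beside 17.8% of all genes tested. The libraries of 42 members did not overlap, all with LPS above untreated, while 19% of all genes tested separated that way. The median log2 difference was 0.15 over the members and 0.01 over all genes tested, and 85 of 86 members had values above 0. The median of the members was 0.08 in TPM, with 74 members above 0, and 0.05 after quantile normalization, with 57 above 0. Without LPS-treated osteoclast replicate 1 the median was 0.09. The 9 were Ndufa5, Ndufb4, Ndufc2, Ndufs6, Uqcr10, Uqcrq, Cox6b1, Ndufa4 and Atp5mpl, and their differences ran from 0.20 to 0.29. The 3 dendritic cell markers summed to 0.595 to 0.692 FPKM untreated and 1.24 to 1.71 FPKM after LPS, with 0 and 1 of them reaching 1 FPKM and none at 0. The 5 neutrophil markers summed to 0.170 to 0.682 and 0.553 to 1.62 FPKM, with 0 and 1 reaching 1 FPKM and Ly6g, Mpo and Elane at 0 in both groups. Their part was not tested.

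The number of calls changed with the libraries and settings. No member was called without untreated osteoclast replicate 1 or replicate 3, and 1 was without LPS-treated osteoclast replicate 1. Without LPS-treated osteoclast replicate 3 there were 31, beside 10.9% of all genes tested. The number was 0 with no filter, 16 of 81 tested with only genes whose mean was 5 FPKM or more, and 1 in TPM. It was 1 after quantile normalization, 2 with only the groups compared and 36 with voom on recovered reads. Of all genes tested, 4.13%, 16.7%, 8.29%, 8.35%, 8.21% and 12.9% were called higher in these settings, in that order. Summed subunit FPKM in the 3 LPS-treated osteoclast libraries was 13237, 12010 and 11300, against 10722, 11197 and 10766 untreated. The first library was the highest and the third was close to the untreated ones.

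Ndufa4, a complex IV subunit on chromosome 6 (11900292 to 11907497), had the largest difference of the 9. It was at 236, 236 and 232 FPKM untreated and at 338, 272 and 256 FPKM after LPS, a difference of 0.29 ± 0.09 (limma adjusted p = 0.041). Atp5mpl, a small proteolipid of complex V, was at 76.1, 78.7 and 76.8 against 109, 87.5 and 87.4 FPKM, a difference of 0.28 ± 0.07 (limma adjusted p = 0.019). Uqcrq, an accessory subunit of complex III, was at 105, 113 and 108 against 137, 122 and 116 FPKM. In each of these the first LPS-treated library was well above the other 2.

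Other members with high differences did not pass. Atp5k, a dimer subunit of complex V, had the highest of all members, 0.33 ± 0.13 (limma adjusted p = 0.12), with 62.4, 82.2 and 65.7 against 105, 79.3 and 80.5 FPKM, which overlapped. Ndufb6 was at 105, 119 and 119 against 163, 142 and 124 FPKM, and Cox7a1 at 16.3, 14.4 and 15.1 against 20.6, 19.6 and 16.5 FPKM. Uqcr11 was at 247, 214 and 211 FPKM after LPS. These last 3 separated the groups but did not pass.

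At the other end, the core subunit Ndufs1 was at 36.6, 37.1 and 36.9 FPKM untreated and at 37.5, 37.7 and 36.8 FPKM after LPS, a difference of 0.02 ± 0.03. Sdhc was at 105, 104 and 95.1 FPKM after LPS, a difference of 0.02 ± 0.05. Sdhb, the highest of complex II at 0.10 ± 0.06, was at 167, 167 and 166 against 194, 182 and 162 FPKM. These groups overlapped. No gene of complex II and none of the 9 assembly factors passed in limma, and none had an unadjusted p under 0.05. Ndufaf4 was at 12.6, 11.2 and 10.5 against 12.1, 11.6 and 11.8 FPKM, and Atp5s, the lowest of all members at -0.10, at 3.61, 2.93 and 3.00 against 3.67, 2.29 and 2.88 FPKM. Ndufaf8, the highest of the assembly factors at 0.24 ± 0.13, was at 14.7, 15.3 and 12.2 against 18.7, 18.1 and 13.9 FPKM. The lowest of complex III was Uqcrc1, at 133, 136 and 135 against 143, 149.96 and 135 FPKM, and the lowest of complex IV was Cox7a2l, at 299, 337 and 313 against 362, 333 and 301 FPKM. In each of these genes the groups overlapped.

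None of the 13 mitochondrially encoded subunits was called by limma, and none had an unadjusted p under 0.05. Of the other lists, limma called Cycs higher at 0.24, Coa6, an assembly factor of complex IV, at 0.21 and Gabpb1 at 0.23, and Uqcc3, an assembly factor of complex III, lower at -0.26. Uqcc3 was called lower under all 3 scalings, at -0.34 in TPM and -0.33 after quantile normalization. Cycs and Coa6 passed in neither of these, and Gabpb1 passed after quantile normalization and not in TPM. Ppargc1b and Esrra did not pass, each with a difference of -0.00.

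The LPS effects of the cell types were compared by the interaction, which is the effect in osteoclasts minus that in macrophages. Limma called 7 members above 0 and 9 below 0, beside 26.6% and 30% of all genes tested, and the median was -0.00 over the members and -0.01 over all genes tested. Under all 3 scalings 4 members were called above 0 and 0 below, beside 23.1% and 13.4% of all genes tested. These 4 were Ndufaf4, Ndufaf1, Ndufs8 and Sdhb. Ndufaf4 had the highest value, 0.65 ± 0.10 (limma adjusted p = 0.00012), 1.28 in TPM and 0.55 after quantile normalization. Sdhb was at 0.22 ± 0.08 (limma adjusted p = 0.035), and its call was lost in 9 of the 12 fits that left out a library. Ndufaf6, Ndufaf7 and Atp5s were also called above 0 in the deposited values and in TPM, but not after quantile normalization. The call for Atp5s was lost in 10 of the 12 fits that left out a library and that for Ndufaf6 in 6. Calls above 0 were 83 in TPM and 69 after quantile normalization, beside 63.3% and 36.1% of all genes tested. Among members that did not pass, Ndufv3 was the highest of complex I at 0.28 ± 0.14 (limma adjusted p = 0.098), with 23.7, 27.4 and 24.7 against 29.8, 23.7 and 25.8 FPKM in osteoclasts. Atp5g1 was the highest of complex V at 0.10 ± 0.11, with 11.2, 13.3 and 12.5 FPKM in LPS-treated macrophages and 62.2, 54.6 and 49.9 FPKM in LPS-treated osteoclasts. Ndufaf5 had the lowest value of the assembly factors, 0.07 ± 0.19, with 16.1, 13.2 and 14.6 FPKM in LPS-treated osteoclasts. In the plot of both LPS effects, 7 of the 9 assembly factors lie left of 0.

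**Figure D5:**
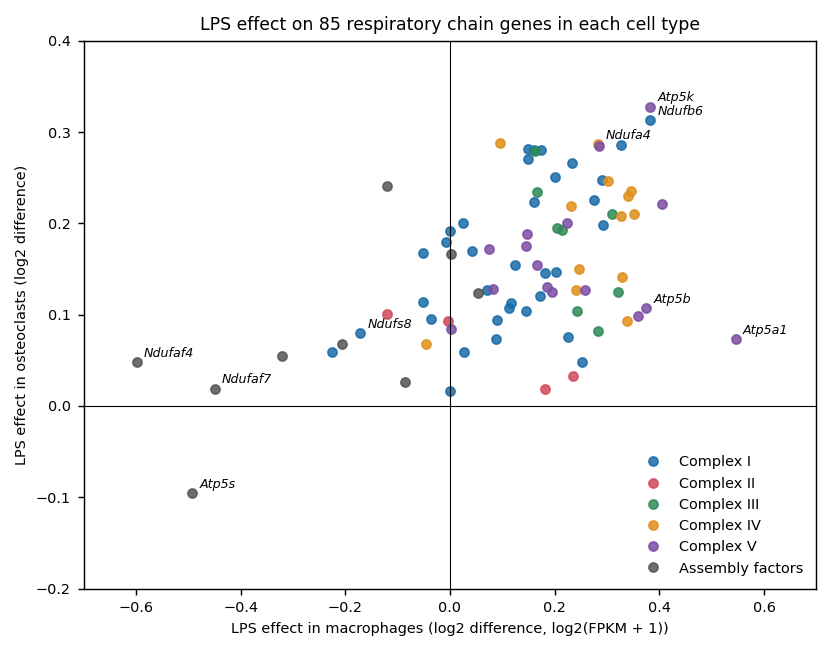
LPS effect of 85 of the 86 members in macrophages (x axis) and in osteoclasts (y axis), as log2 differences on log2(FPKM + 1) as deposited, coloured by complex. The range is wider in macrophages, -0.60 to 0.55, than in osteoclasts, -0.10 to 0.33, and the macrophage effects of most subunits are below 0 in TPM and after quantile normalization.

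The 9 below 0 in the deposited values included Ndufa10, Sdha, Uqcrc1, Uqcrfs1, Cox5a, Atp5a1, Atp5b and Atp5f1. Atp5a1 was lowest at -0.47 ± 0.07 (limma adjusted p = 0.00013), and was at 621, 625 and 579 FPKM in LPS-treated osteoclasts against 565, 589 and 581 untreated. Rescaled to TPM, all 9 were above 0, as they were after quantile normalization. So were all 86 members in TPM and 84 after quantile normalization. The ratio of Atp5a1 to Atp5c1, which no linear scaling alters, was 2.70 to 2.87 in untreated and 2.60 to 2.80 in LPS-treated osteoclasts, which overlap, whereas the macrophage ranges above did not. Cox5a was at 31.9, 32.4 and 29.7 against 38.6, 38.5 and 42.6 FPKM in macrophages and at 101, 99.2 and 95.7 against 113, 104 and 99.0 FPKM in osteoclasts. Uqcrc1 was at 29.9, 30.5 and 30.2 against 34.1, 36.9 and 40.2 FPKM in macrophages. Sdha was at 249, 268 and 254 FPKM in LPS-treated osteoclasts. Below 0 there were 18 calls without LPS-treated osteoclast replicate 1. Above 0 there were 3 without untreated macrophage replicate 2, and 4 without LPS-treated macrophage replicate 1, untreated osteoclast replicate 2 or LPS-treated osteoclast replicate 1.

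After LPS, osteoclasts and macrophages were compared once more. This contrast shares no library with the untreated one. Limma called 85 members higher in osteoclasts and 0 lower, beside 40.9% and 43% of all genes tested, and Ndufaf7 did not pass. The median log2 difference was 1.63 over the members and -0.02 over all genes tested. All 77 subunits were called higher under all 3 scalings, beside 40.9% of all genes tested. Median differences by complex were 2.10 for II, 1.95 for III, 1.58 for I, 1.53 for V, 1.51 for IV and 0.88 for the assembly factors.

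Cox7a1 had the highest ratio of means, 6.94-fold, with 2.34, 2.50 and 3.33 FPKM in LPS-treated macrophages and 20.6, 19.6 and 16.5 FPKM in LPS-treated osteoclasts. Uqcrc2 had the highest log2 difference, 2.46 ± 0.04 (limma adjusted p = 1.7e-13), with 34.2, 36.0 and 36.6 against 211, 203 and 188 FPKM. Sdhb led complex II at 2.30 ± 0.06, with 34.1, 37.2 and 35.4 against 194, 182 and 162 FPKM. Each of these separated the cell types by a wide margin.

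Ndufv1 led complex I at 2.20 ± 0.05, and Atp5g3 complex V at 2.29 ± 0.06, with 50.8, 56.3 and 55.8 against 294, 259 and 253 FPKM. Ndufv1 was at 14.2, 15.0 and 15.7 FPKM in LPS-treated macrophages and at 74.1, 73.4 and 69.5 FPKM in LPS-treated osteoclasts. The lowest of complex I was Ndufb2, as without LPS, at 0.37 ± 0.09 with 0.905, 0.845 and 0.923 against 1.80, 1.19 and 1.37 FPKM. The lowest of complex V was Atp5e, the small epsilon subunit, at 0.76 ± 0.08 with 49.8, 50.9 and 53.3 against 102, 81.5 and 81.0 FPKM. Both differences passed, but Ndufb2 was kept only through its osteoclast libraries, which favours that result.

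Sdhc was the lowest of complex II at 1.48 ± 0.05, with 34.3, 37.0 and 35.6 FPKM in LPS-treated macrophages against 105, 104 and 95.1 FPKM in LPS-treated osteoclasts. Uqcrq was the lowest of complex III at 1.88 ± 0.05, with 32.99, 33.01 and 33.6 against 137, 122 and 116 FPKM. Cox6b1 was the lowest of complex IV at 1.35 ± 0.06, with 176, 187 and 184 against 519.7, 449.9 and 430.3 FPKM. All 3 passed, with no overlap between the cell types. Ndufaf1 led the assembly factors at 2.00 ± 0.06, with 4.49, 4.42 and 4.36 against 20.5, 22.1 and 19.7 FPKM, while Ndufaf7 overlapped at 1.36, 1.61 and 1.95 against 2.02, 2.24 and 1.64 FPKM. Complex III took 10.8 to 11.04% of subunit FPKM in LPS-treated macrophages and 15.5 to 15.7% in LPS-treated osteoclasts, and Atp5g2 took 41.9 to 43.0% and 20.03 to 22.3% of subunit c.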

How the data were processed

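The authors deposited FPKM values for 12 libraries of total RNA. The submitters' processing notes name fastp, STAR, featureCounts, DESeq2 and mm10, with no versions, roles or settings. Whether counting used strand is not given in the sources used here. The 27 members with exons overlapped by an opposite-strand gene are therefore less certain, above all Ndufa13, Ndufb6, Atp5o and Ndufaf2 (over 20% overlapped). More than 20% of the 50-base words of Ndufs5, Uqcrb, Cox7c, Atp5g2 and these 4 genes also occur elsewhere.

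Per gene, the deposited FPKM values were whole multiples of a step, from which whole reads were recovered (tolerance 0.02) for all 25854 genes above 0. Their implied lengths matched GENCODE M21 for 96.8%. FPKM columns summed to 255852 to 408994, so a difference is relative to the authors' scales, and TPM rescaling and quantile normalization were tried as other scalings. Mitochondrial shares and depths use the recovered reads.

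Genes with at least 1 FPKM in 3 libraries were tested with limma 3.58.1 in R 4.3.3 (variance trend, two-sided) on log2(FPKM + 1) over all 12 libraries, which understates the change of low genes. Adjusted p-values are limma's, by Benjamini-Hochberg over 11335 genes. Fold ratios are ratios of mean FPKM. Ranges are the lowest and highest library. The labels give no batch or date. Groups came from the sample titles. Any member could be named, and values by library are given for the highest and lowest of each complex in each comparison (1 exception below), for subunit c and for some others chosen after their values were seen. The values of 1 member are not reported here, though counts, sums and medians include it. The members and lists were chosen with earlier results of these data known. Tried as alternatives were the scalings, the replicate block, only the groups compared, each library left out, 0.1 as pseudocount, no minimum level, a minimum mean of 5 FPKM and, chosen after seeing the data, voom on the recovered reads. The fit was tested on simulated data. Positions are those of GENCODE M21 (GRCm38), and promoters are RefSeq's (GRCm38.p6), 71 matched by symbol and 2 by an older name.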

Additional observations from a re-analysis of the deposited data

Results flagged for a closer look

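For 16 members the LPS effect differed between osteoclasts and macrophages by limma's interaction test, in the deposited values. Of these, 7 were above 0 and 9 below 0, beside larger shares of all genes tested, 26.6% and 30%. The values of 15 are given here. The interaction was -0.47 for Atp5a1, -0.27 for Atp5b, -0.26 for Atp5f1, -0.25 for Cox5a, -0.20 for Ndufa10, -0.20 for Sdha, -0.20 for Uqcrc1 and -0.20 for Uqcrfs1. It was 0.22 for Sdhb, 0.25 for Ndufs8, 0.27 for Ndufaf1, 0.37 for Ndufaf6, 0.40 for Atp5s, 0.47 for Ndufaf7 and 0.65 for Ndufaf4. Their limma adjusted p-values ran from 0.00012 for Ndufaf4 to 0.049 for Ndufa10. The 9 values below 0 were above 0 in TPM and after quantile normalization, and the 7 above 0 stayed above 0 there. All 86 members were above 0 in TPM and 84 after quantile normalization, so these signs do not set the 7 apart. In the 12 fits that each left out a library, the calls for Ndufa10, Uqcrc1 and Atp5s were lost in 10, that for Sdhb in 9, that for Ndufaf6 in 6 and those for Cox5a and Ndufaf1 in 1 each. The calls of the other 8 were made in all 12.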

How the results depend on the processing

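Counts of members called are given here. Higher in osteoclasts without LPS, they were 83 to 85 with each library left out, and lower 0 to 1; lower was 0 at a mean of at least 5 FPKM and 0 with quantile normalization. Higher after LPS in macrophages, they were 32 to 49 with each library left out, 0 in TPM and 1 with quantile normalization. Lower was 5 to 8, 83 and 71. Of all genes tested, 15.9% and 26.9% were called higher in TPM and with quantile normalization, and 70% and 45.8% lower. Higher after LPS in osteoclasts, they were 0 to 31 with each library left out. They were 0 with no filter, 16 of 81 tested at a mean of at least 5 FPKM and 1 in TPM. With quantile normalization they were 1, with only the groups compared 2 and with voom 36. Of all genes tested, 4.13%, 16.7%, 8.29%, 8.35%, 8.21% and 12.9% were called higher in these settings, from no filter to voom. For the interaction, above 0 was 3 to 8 with each library left out, 4 with no filter, 83 in TPM and 69 with quantile normalization (63.3% and 36.1% of all genes tested); below 0 was 6 to 18, 0 in TPM and 0 with quantile normalization. Higher in osteoclasts after LPS, they were 84 to 85 with each library left out, 86 in TPM and 81 of 81 tested at a mean of at least 5 FPKM.

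Reversals came from TPM and quantile normalization alone among the alternatives run on all libraries. The macrophage LPS median became -0.46 and -0.32. That effect became, in this order, -0.25 and -0.14 for Ndufb6, -0.41 and -0.41 for Sdha, -0.32 and -0.33 for Uqcrfs1, -0.48 and -0.49 for Uqcr11, -0.29 and -0.52 for Cox6b1, -0.10 and -0.31 for Atp5a1, -0.64 and -0.62 for Atp5g2, and -0.52 in TPM for Ndufaf5. The interaction became 0.37 and 0.31 for Sdha, 0.36 and 0.25 for Uqcrc1, 0.32 and 0.20 for Cox5a, and 0.10 and 0.27 for Atp5a1. In TPM the median of all genes tested was -0.55 for LPS in macrophages and 0.51 for the interaction, against 0.02 and -0.01 as deposited.

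The 18 same-numbered pairs of libraries from different groups correlated at -0.07 to 0.10 in their deviations from group means. Within macrophages these values were 0.10, 0.10 and -0.05, and within osteoclasts 0.07, 0.08 and 0.03. With 3 libraries per group they cannot exclude a pairing by replicate number. With the replicate block, calls were 83 and 1 for untreated osteoclasts, 39 and 6 for LPS in macrophages, 8 and 0 in osteoclasts, and 7 and 9 for the interaction. The fewest recovered reads of a member in a library were 16, and small differences of such genes are the least certain.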

Other observations

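Ndufb1-ps, which matches the symbols but is typed as a long non-coding RNA that shares a promoter with a neighbour, was named after its values were seen. It was at 13.9 ± 0.67 FPKM in untreated macrophages and 75.0 ± 2.70 FPKM after LPS (SD, n = 3), and at 30.0 ± 1.27 and 37.2 ± 5.62 FPKM in osteoclasts. Its interaction was -2.05, beyond that of any member. Reads of it and of its neighbour cannot be told apart where they overlap without knowledge of strand.

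The YY1 site was found in the windows of Ndufa9, Ndufc1, Ndufs4, Ndufs6, Ndufs7, Ndufaf8, Atp5j and Atp5j2. In all of these except Atp5j its first base lay 10 to 35 bases after the gene start. Atp5j held both the YY1 site and the NRF1 core, the latter at base -147 from the start.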
